A study of Mus musculus with 11 samples.

Results

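The 9 genes of central myelin described here were taken by symbol and followed through a single-nucleus RNA sequencing study of mouse brain: Mbp, Mobp, Mog, Mag, Mal, Cnp, Cldn11, Fa2h and Sec14l5. All 9 of 9 symbols were found among the 25938 genes of the deposited count matrix. The rule was the list of symbols and used no measured value, but the list was drawn up with earlier results of these data known. Nuclei had been isolated from frozen brain over a sucrose cushion and captured in droplets, and 110304 nuclei in 11 libraries, each from 1 mouse, carried a deposited class name. By the labels, every mouse of every group carried the human transferrin receptor (TfR) as a homozygous knock-in, and the deposited metadata gave the strain as C57BL/6J. All mice received 4 weekly intravenous doses, with tissue taken 72 hours after the last.

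The control, ATV:BACE1, was a TfR-binding molecule without an oligonucleotide. Its name refers to BACE1, so it may differ from OTV:Malat1 in more than the oligonucleotide, which was not tested. ATV:BACE1 was given at 57 mg/kg to 3 mice per the sample labels. The series' design text can be read as giving 60 mg/kg to this group too, so whether its dose equalled that of OTV:Malat1 is not settled here. OTV:Malat1 coupled an antisense oligonucleotide (ASO) against Malat1 to TfR binding and was given at 60 mg/kg to 3 mice. The group nonTV:Malat1 received the Malat1 oligonucleotide on a molecule that does not bind TfR, at 60 mg/kg in 3 mice. The group Malat1 ASO received the oligonucleotide at 2.5 mg/kg in 2 mice. How much of the 60 mg/kg was oligonucleotide is not given here, so 60 and 2.5 mg/kg are not compared as oligonucleotide doses. Replicate 1 of each group was a female of 2.33 months, replicate 4 a male of 2.57 months and replicate 5 a male of 2.33 months, and the deposited batch followed the replicate number, so animal number, batch, sex and age cannot be told apart. The region was labelled posterior and the deposited metadata gave cortex as the tissue. Libraries held 7546 to 13840 nuclei and 33235994 to 43972886 unique molecular identifiers (UMIs), each UMI standing for 1 captured RNA molecule. OTV:Malat1 replicate 5 had the most nuclei and the lowest median, 2205 UMIs per nucleus against 2691 to 3666 in the other libraries. Of 108788 different cell barcodes, 1495 (1.37%) occurred in more than 1 library.

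Myelin is a stack of oligodendrocyte membrane wrapped around an axon, in which basic proteins hold the cytoplasmic faces together, adhesion proteins and a claudin seal and attach the layers, and a large share of galactolipids with hydroxylated fatty acids packs the bilayer. The genes are turned on together as oligodendrocytes mature, under Myrf and Sox10. Counts from nuclei cover the RNA that has not left for the cytoplasm. Malat1, the target of the oligonucleotides, is an abundant long noncoding RNA that stays in the nucleus.

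To show what lies before the transcription starts of these genes, the 250 bases upstream of each RefSeq start were read from a RefSeq table of build GRCm38.p6, which held 9 such windows for 7 of the members and none for Mbp or Fa2h. They were searched on both strands for the Myrf core, CTGGCAC or CTGGTAC, and for the Sox core, ACAAAG or ACAATG. A Myrf core occurred in 5 of the 9 windows, from 4 of the 7 members, and in 5.93% of all 32851 windows of the table. A Sox core occurred in 4 of the 9 windows, from Mobp, Mag and Cnp, and in 25.2% of all windows. In both counts 2 of the windows are overlapping ones of Mag that hold the same core. By the annotated gene positions Sec14l5 begins at chr16:5146906, so its Myrf core lies inside the gene. The Mag window at chr7:30914322-30914571, which held neither core, also lies inside its gene. The stretches around the Myrf cores are given 5′ to 3′ on the strand of the gene, with the core, in either orientation, in capitals. Mog lies on the minus strand (chr17:37023465-37023491), Mag on the minus strand (chr7:30914915-30914941), Cnp on the plus strand (chr11:100574848-100574874) and Sec14l5 on the plus strand (chr16:5146916-5146942).
Mog: gaaatgcccaGTACCAGgcagccactg
Mag: caggcggcccCTGGCACccagggggca
Cnp: ccgctgcttcCTGGCACtcaggtttcc
Sec14l5: tgtgggggtgGTGCCAGgccagttcag

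The Mobp window (plus strand, chr9:120149492-120149741) is shown whole because it held 6 copies of ACAAAG, all read as CTTTGT on the strand of the gene, and no Myrf core. The copies are in capitals.
Mobp: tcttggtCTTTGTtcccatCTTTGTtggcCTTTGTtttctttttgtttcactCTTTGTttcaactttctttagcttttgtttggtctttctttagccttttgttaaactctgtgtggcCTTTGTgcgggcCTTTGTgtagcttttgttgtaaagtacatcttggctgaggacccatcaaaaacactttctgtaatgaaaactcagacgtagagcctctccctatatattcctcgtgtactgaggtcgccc
A match is a run of letters and not a bound site, and the count data do not bear on binding. The windows of Mal and Cldn11 held neither core.

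Oligodendrocytes, as named in the deposited metadata, were 14321 nuclei (13.0% of all) with a median of 947 UMIs. Levels of the 9 genes are given as CPM, a gene's UMIs for every 1000000 UMIs of the same nuclei, from UMIs summed over the nuclei of a class in 1 library. UMIs are not divided by gene length, so levels are compared between groups or classes for 1 gene and not between genes. The oligodendrocyte markers Opalin, Ermn, Aspa, Ugt8a, Myrf, Sox10, St18 and Trf, which are not members, were detected in this class in every library. Ermn, a cytoskeletal protein of myelinating oligodendrocytes, stood at 203 CPM in this class against 10.6 CPM in neurons. All 7 neuron markers also had UMIs in this class in every library, so detection alone does not set the class apart. The level of Ermn went with the class name, while nuclei of the class in cluster 5, described below, also held precursor markers.

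Mbp encodes myelin basic protein, which joins the cytoplasmic faces of the membrane. In ATV:BACE1 oligodendrocytes it stood at 3804, 3960 and 3622 CPM in replicates 1, 4 and 5, in nonTV:Malat1 at 4137, 4405 and 3689, in OTV:Malat1 at 4456, 4102 and 4024, and in Malat1 ASO at 4213 and 3984. The 3 OTV:Malat1 libraries and both Malat1 ASO libraries were above all 3 controls, while nonTV:Malat1 overlapped them. These levels are scaled by total counts, and other scaling is described with the fits below. Among genes with at least 110 UMIs, 7.68% had OTV:Malat1 and ATV:BACE1 libraries that did not overlap, 14.3% had Malat1 ASO and ATV:BACE1 libraries that did not, and 6.01% had nonTV:Malat1 and ATV:BACE1 libraries that did not. Mobp encodes a small basic protein of compact myelin. It stood at 1025, 907 and 809 CPM in ATV:BACE1, 1147, 984 and 823 in nonTV:Malat1, 1165, 1012 and 1215 in OTV:Malat1, and 1149 and 1193 in Malat1 ASO. Mobp overlapped with the controls in OTV:Malat1 and nonTV:Malat1, and in Malat1 ASO both libraries were above them.

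Among the surface and junction proteins, Mog, an immunoglobulin-type protein of the outermost myelin layer, ranged from 852 to 987 CPM in ATV:BACE1 and from 894 to 1045 in OTV:Malat1. Mag, an adhesion protein of the membrane next to the axon, ranged from 669 to 728 CPM in ATV:BACE1, 675 to 774 in OTV:Malat1 and 658 to 723 in nonTV:Malat1. Both Mag values of Malat1 ASO, 628 and 589 CPM, were below all controls. Of genes with at least 110 UMIs, 14.3% did not overlap between these groups. Cldn11, the claudin of myelin tight junctions, ranged from 236 to 344 CPM in ATV:BACE1 and from 311 to 350 in OTV:Malat1. For Mog and Cldn11 the libraries of these groups overlapped.

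Mal encodes a proteolipid that sorts membrane cargo. It stood at 337, 295 and 266 CPM in ATV:BACE1, 296, 289 and 268 in nonTV:Malat1, 288, 280 and 391 in OTV:Malat1, and 289 and 339 in Malat1 ASO, and OTV:Malat1 replicate 5 was the highest of the 11. Cnp encodes a phosphodiesterase that keeps cytoplasmic channels in myelin open. It stood at 175, 127 and 175 CPM in ATV:BACE1, 169, 169 and 169 in nonTV:Malat1, 177, 175 and 231 in OTV:Malat1, and 139 and 216 in Malat1 ASO. The same library, OTV:Malat1 replicate 5, was the highest for Cnp. It also had the lowest median depth of oligodendrocyte nuclei, 707 UMIs against 809 to 1138 in the others, and its part in these values was not tested. Cnp overlaps Dnajc7 on the opposite strand over 8912 bases, and whether counting used strand is not given in the sources used here. Dnajc7 had 2317 UMIs in oligodendrocytes and Cnp 2855.

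In lipid handling, Fa2h hydroxylates the fatty acids of myelin galactolipids, and ranged from 589 to 653 CPM in ATV:BACE1, 590 to 799 in nonTV:Malat1, 574 to 750 in OTV:Malat1, and 546 to 789 in Malat1 ASO. Sec14l5 encodes a Sec14-like protein, of a family that binds and moves lipids. It stood at 604, 682 and 615 CPM in ATV:BACE1, 633, 660 and 595 in nonTV:Malat1, 676, 739 and 662 in OTV:Malat1, and 617 and 545 in Malat1 ASO. All 4 groups overlapped in Fa2h, and for Sec14l5 the OTV:Malat1 libraries overlapped with the controls. The plot of CPM by library sets the 9 genes beside Malat1.

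**Figure D1:**
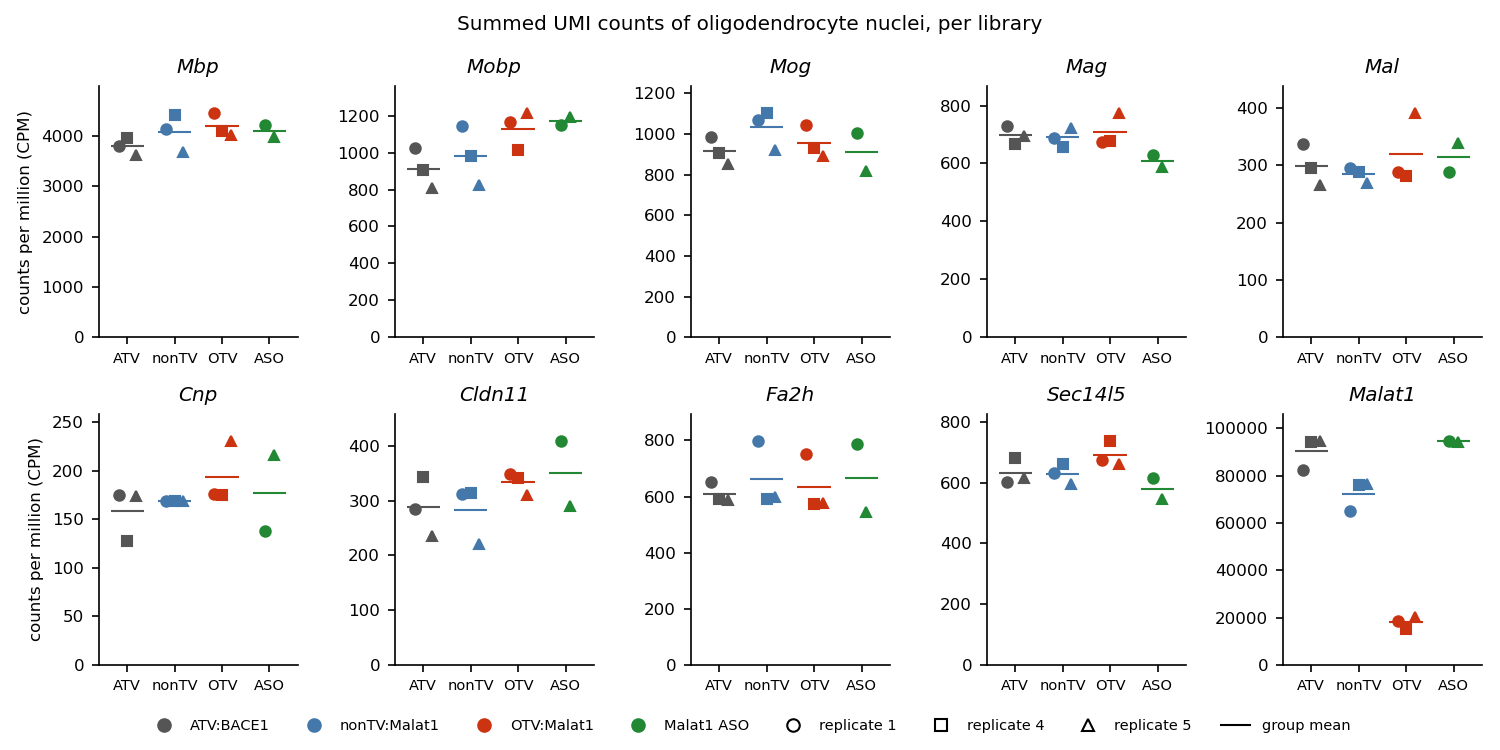
Each panel plots CPM in oligodendrocyte nuclei (vertical axis, from 0) for 1 gene, with 1 point per library, marker shape for the replicate number and a line at the group mean. Malat1 stood between 15152 and 20265 CPM in OTV:Malat1 and between 64847 and 94768 CPM in the other groups. The ranges of 8 of the 9 members overlapped between OTV:Malat1 and ATV:BACE1, the exception being Mbp. Of genes with at least 110 UMIs, 7.68% did not overlap between these groups. CPM is scaled by total counts, which bears on these values as described below.

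Whether the myelin genes changed where the target fell was asked with edgeR's quasi-likelihood test over the 12362 genes that passed the count filter, all 9 members among them. Malat1 was at 82273, 94317 and 94565 CPM in ATV:BACE1 and at 18543, 15152 and 20265 CPM in OTV:Malat1, a log2 change of -2.44 (SE 0.20, Benjamini-Hochberg adjusted p = 2.87e-06, lower in 3 of 3 libraries). None of the 9 members passed in OTV:Malat1 against ATV:BACE1, with 0.00809% of all genes called, 1 gene, which was Malat1. At an unadjusted p under 0.05 the count was 0 of 9, where 1.46% of all genes passed. DESeq2 called 0 of the 9 as well, and 0 of them at an unadjusted p under 0.05, where 0.404% of all genes passed.

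The log2 changes of the members in OTV:Malat1 against ATV:BACE1 ran from -0.08 for Mag to 0.20 for Mobp. Their median was 0.0215, beside 0.000564 for all genes tested. Mbp changed by 0.04 (SE 0.17, 95% interval -0.32 to 0.40), less than the spread between libraries. The interval was -0.16 to 0.56 for Mobp, -0.40 to 0.32 for Mog and -0.39 to 0.22 for Mag. For Mal it was -0.35 to 0.31, for Cnp -0.17 to 0.53 and for Cldn11 -0.33 to 0.54. For Fa2h it was -0.45 to 0.36 and for Sec14l5 -0.32 to 0.36. All 9 intervals held 0, and none reached the change of Malat1. Changes inside an interval were not excluded by this fit. With the replicate number as a block the intervals were narrower, -0.01 to 0.43 for Mobp, -0.15 to 0.24 for Mbp and -0.08 to 0.42 for Cnp, and 0 of 9 members were called or had an unadjusted edgeR p under 0.05, where 0.0162% and 3.34% of all genes did. In CPM, 5 of 9 members (Mbp, Mobp, Mog, Cnp and Sec14l5) were higher in OTV:Malat1 in all 3 same-numbered pairs, beside 22.6% of all genes with at least 110 UMIs, a count made after seeing the data and on the total-count scale.

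Scaling bears on these values, because Malat1 itself was a sizeable part of the UMIs of oligodendrocyte nuclei outside OTV:Malat1. Scaled by total counts in place of TMM factors, the median of all genes in OTV:Malat1 against ATV:BACE1 moved to 0.102 and that of the members to 0.129. CPM is also scaled by total counts, and the change of Mbp was 0.15 under that scaling against 0.04 with TMM. Under it, 70.6% of all genes had a change above 0, against 50.1% with TMM. There 1 of the 9 members had an unadjusted edgeR p under 0.05, as had 2.53% of all genes, and 0 were called. The library OTV:Malat1 replicate 5 stood apart in depth, and without it the change was -0.15 for Mal (SE 0.16), 0.08 for Cnp (SE 0.17) and 0.10 for Mbp (SE 0.19), and Malat1 was at -2.50 (SE 0.23, edgeR adjusted p = 4.81e-05).

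**Figure D2:**
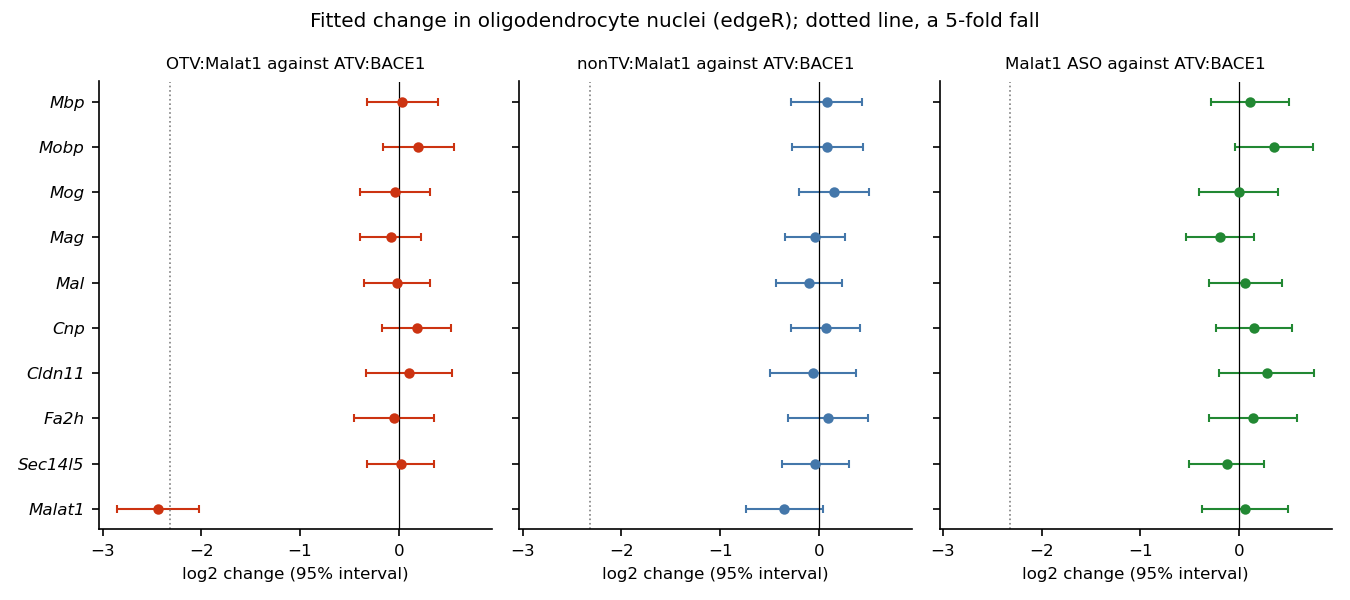
The plot of changes gives the fitted log2 change (horizontal axis) in oligodendrocyte nuclei for each gene as a point with its 95% interval, for OTV:Malat1, nonTV:Malat1 and Malat1 ASO against ATV:BACE1, and a dotted line marks a 5-fold fall. Malat1 in OTV:Malat1 lies at -2.44 and every interval of a member crosses 0.

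The other treated groups gave no call among the members. In nonTV:Malat1 against ATV:BACE1, 0 of 9 passed and 0 of 9 had an unadjusted p under 0.05 (1.66% of all genes), with log2 changes from -0.10 for Mal to 0.15 for Mog and a median of 0.0701, beside -0.0088 for all genes. Malat1 itself was at -0.35 there (SE 0.19, 95% interval -0.74 to 0.04). Its 3 nonTV:Malat1 libraries, at 64847 to 76431 CPM, were below the controls, at 82273 to 94565 CPM, where 6.01% of genes with at least 110 UMIs did not overlap. In cluster 3 alone, Malat1 was at -0.41 (SE 0.17, 95% interval -0.77 to -0.05, edgeR adjusted p = 0.99995). In Malat1 ASO against ATV:BACE1, 0 of 9 passed and 0 of 9 had an unadjusted p under 0.05 (2.3% of all genes). The values ran from -0.19 for Mag to 0.36 for Mobp, with a median of 0.112, beside -0.00627 for all genes. The comparisons against ATV:BACE1 share their control libraries. With 2 mice, the intervals of Malat1 ASO were wide, from -0.04 to 0.76 for Mobp and from -0.54 to 0.15 for Mag. For cluster 3 alone, Mobp in Malat1 ASO against ATV:BACE1 was at 0.43 (SE 0.19, 95% interval 0.03 to 0.82, edgeR adjusted p = 0.999). The intervals of the other members held 0 there.

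OTV:Malat1 was also set against the other groups given an oligonucleotide. Against nonTV:Malat1, with Malat1 at -2.09 (SE 0.19, edgeR adjusted p = 2.83e-05), 0 of 9 members passed, and their values ran from -0.19 for Mog to 0.16 for Cldn11. Against Malat1 ASO, with Malat1 at -2.50 (SE 0.21, edgeR adjusted p = 5.14e-06), 0 of 9 passed, and the values ran from -0.19 for Fa2h to 0.15 for Sec14l5. In both, 0 of 9 had an unadjusted p under 0.05, where 1.56% and 1.63% of all genes did. DESeq2 called 0 members in these further comparisons, and 1 had an unadjusted DESeq2 p under 0.05 in Malat1 ASO against ATV:BACE1, where 0.866% of all genes did. In the other comparisons 0 members had, against 0.421% of all genes in nonTV:Malat1 against ATV:BACE1, 0.437% in OTV:Malat1 against nonTV:Malat1 and 0.364% in OTV:Malat1 against Malat1 ASO. Under the replicate block, Cldn11 and Mobp had unadjusted p values of 0.0043 and 0.00457 in Malat1 ASO against ATV:BACE1 (log2 changes 0.40 and 0.37, edgeR adjusted p 0.502 and 0.507), where 6.2% of all genes passed the unadjusted threshold and 0.0404% were called. In OTV:Malat1 against Malat1 ASO, the block gave Cldn11 an unadjusted p of 0.0379 (log2 change -0.28, edgeR adjusted p 0.989), where 4.68% of all genes passed the unadjusted threshold and 0.00809% were called.

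The rest of the myelin programme was read from lists. Of 32 other structural and mature myelin genes, 31 passed the count filter, and 0 were called by edgeR in any of the 5 comparisons, with 0 at an unadjusted p under 0.05. Their median log2 change in OTV:Malat1 against ATV:BACE1 was -0.0566. Of 14 genes of myelin lipid synthesis, which include the galactolipid enzyme Ugt8a, 0 were called (median -0.0374). Of 12 regulators of myelination, 0 were called (median 0.0276). Sox10 in Malat1 ASO against ATV:BACE1 was the 1 gene of them with an unadjusted edgeR p under 0.05, where 2.3% of all genes passed. Its log2 change was -0.49 (SE 0.22, edgeR adjusted p = 0.999838), and it was named after its value was seen. Of the other 4 Sec14 family genes, 2 were tested and 0 were called. Over the 5 comparisons, 1.46% to 2.3% of all genes had an unadjusted edgeR p under 0.05, and at most 0.00809% were called. Markers of other cells were present in oligodendrocytes. All 7 neuron markers had UMIs in every library, and their sum ranged from 759 to 786 CPM in ATV:BACE1, 741 to 1101 in OTV:Malat1, 652 to 721 in nonTV:Malat1 and 612 to 823 in Malat1 ASO. The 7 precursor markers summed to 1247 to 1517 CPM in ATV:BACE1 and 1394 to 1927 in OTV:Malat1. The 5 choroid plexus and ependyma markers, all detected in every library, summed to 970 to 2282 CPM in ATV:BACE1 and 1068 to 1315 in OTV:Malat1. Their part in the values of the members was not tested.

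Of the oligodendrocytes, 12991 (90.7%) lay in deposited cluster 3 and 1330 (9.29%) outside it. The clusters were made from the same counts, so the difference in level is a description. Nuclei in cluster 3 had a median of 910 UMIs and those outside 1938, and 0.0231% against 8.8% were called doublets. Relative to total UMIs, every member stood lower outside cluster 3, at 33.6% (Sec14l5) to 65.6% (Mbp) of its level inside, as means over 11 libraries. Mbp ranged from 3847 to 4793 CPM inside and from 2354 to 3223 CPM outside. Sec14l5 ranged from 643 to 856 CPM inside and from 103 to 357 CPM outside. For these genes no library outside reached any library inside. The same held for Mobp, Mog, Mag, Mal and Fa2h. The ranges of Cnp (136 to 258 inside, 62.7 to 170 outside) and Cldn11 (234 to 434 inside, 164 to 291 outside) overlapped. How many of all genes separate in this way was not counted, so the separation is not shown to be particular to the members. Per nucleus, without division by the higher total outside, the means of 7 members were higher outside, such as Mbp (4.39 UMIs inside, 6.87 outside), Mobp (1.17 and 1.39) and Mag (0.748 and 1.02). The means of Mog and Sec14l5 were lower outside on that scale too, the latter at 0.741 inside and 0.574 outside. These per-nucleus means were not tested.

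The nuclei outside were of several kinds. Cluster 5 held 779 of them, where Pdgfra, Lhfpl3 and Tnr, from the list of precursor markers and named after their values were seen, stood at 406, 3175 and 4448 CPM, against 6.33, 45.9 and 32.5 CPM in cluster 3. There Sec14l5 was at 20.9% and Mog at 29.4% of the level in cluster 3, while Cnp was at 63.5% and Mbp at 58.6%. Cluster 7 held 344, with members at 60.5% (Cnp) to 76.7% (Mbp) in the 6 libraries with at least 20 such nuclei. All 7 precursor markers were detected in cluster 7, with a sum of 2142 CPM against 172 CPM in cluster 3, and all 6 microglial markers, with a sum of 1187 CPM against 87.7 CPM. The summed neuronal markers were at 497 CPM against 738 CPM there, and the astrocytic, endothelial, mural, leptomeningeal and choroid plexus sums were lower than in cluster 3 as well. The other 207 nuclei had a median of 2697 UMIs, and 38.6% of them were called doublets. In cluster 3, 296 further nuclei (2.22% of the cluster) bore the name neuron with a median class score of 0.471 and 640 UMIs. In these, Mbp stood at 3092 CPM, Sec14l5 at 563 CPM and Mobp at 544 CPM.

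**Figure D3:**
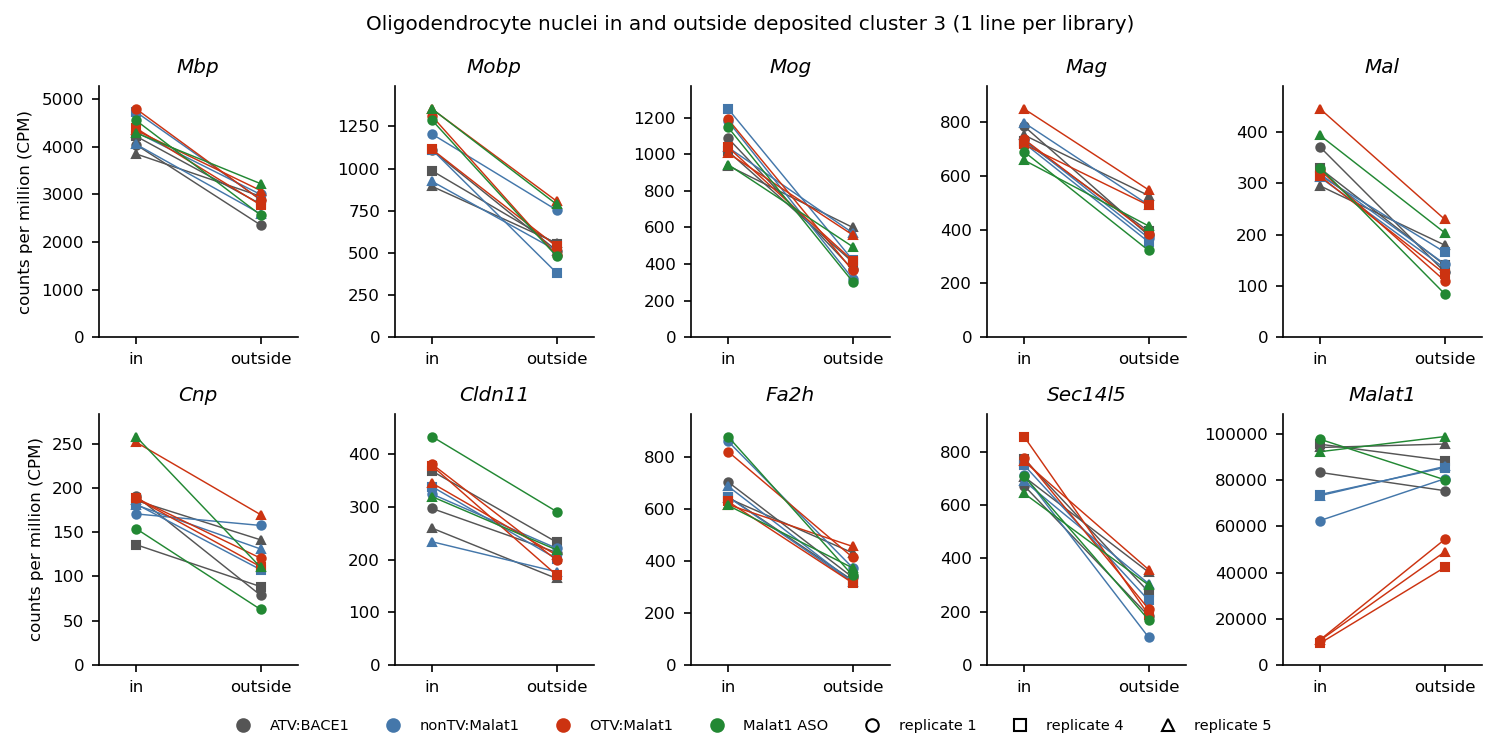
The plot of oligodendrocytes by cluster gives the level in CPM (vertical axis, from 0) of each gene for nuclei in cluster 3 and outside it, joined by 1 line per library. Mbp lies between 3847 and 4793 CPM inside and between 2354 and 3223 CPM outside, and Sec14l5 between 643 and 856 inside and between 103 and 357 outside.

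Malat1 fell further in cluster 3 than outside it, and no member was called in either set of nuclei. In cluster 3, Malat1 stood at 83381 to 95599 CPM in ATV:BACE1 and at 9382 to 10883 CPM in OTV:Malat1, a log2 change of -3.27 (SE 0.19, edgeR adjusted p = 8.17e-10). There 0 of 9 members were called, with 0.00871% of genes called and 1.39% at an unadjusted p under 0.05, and their changes ran from -0.10 for Mag to 0.21 for Mobp. Outside cluster 3, Malat1 stood at 75485 to 95678 CPM in ATV:BACE1 and at 42224 to 54337 CPM in OTV:Malat1, a log2 change of -0.87 (SE 0.19, edgeR adjusted p = 0.910). There 0 of 9 members were called by edgeR and 0 had an unadjusted p under 0.05, where 2.13% of genes did, and their changes ran from -0.14 for Sec14l5 to 0.34 for Cnp.

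The difference in change between nuclei in and outside cluster 3 was tested in a fit over both, a test chosen after seeing the data. Both sets of nuclei came from the same 11 mice, so they are not independent animals. For Malat1 it was -2.37 on the log2 scale (SE 0.20, 95% interval -2.77 to -1.97, edgeR adjusted p = 2.65e-09), lower inside. For the members, edgeR called 0 of 9 in each of the 3 comparisons with ATV:BACE1, and 0 had an unadjusted p under 0.05, with 0.0089% of genes called and 2.92% at an unadjusted p under 0.05 in OTV:Malat1 against ATV:BACE1 (3.19% in nonTV:Malat1 and 2.74% in Malat1 ASO). DESeq2 was not run on this test.

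Outside oligodendrocytes, 8 classes had at least 20 nuclei in 8 or more libraries, and most of the 9 genes stood there at a small share of the oligodendrocyte level in CPM. In neurons (76211 nuclei, median 3926 UMIs), Mbp stood at 198 ± 25.0 CPM (SD, n = 11), 4.92% of its level in oligodendrocytes. The median over the 9 genes was 4.48% in neurons, 11.2% in astrocytes and 21.7% in microglia. Without called doublets the neuronal median was 2.78%. Depth ran the other way, with a median of 1402 UMIs in astrocytes and 883 in microglia, and these shares are of values divided by total UMIs. Per nucleus, Mbp was at 4.63 ± 0.804 UMIs in oligodendrocytes, 0.962 ± 0.208 in neurons, 0.913 ± 0.269 in astrocytes and 0.989 ± 0.204 in microglia (SD, n = 11). With called doublets included, the latter 3 classes lay within each other's spread. In nuclei not called doublets, Mbp was at 0.574 ± 0.236 UMIs in neurons and 0.842 ± 0.233 in astrocytes (SD, n = 11). RNA released from broken cells gives UMIs to any nucleus, and its part in these values was not tested.

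A share of nuclei with a UMI depends on depth, so nuclei were thinned to 500 UMIs. Mbp then had a UMI in 85.6% of oligodendrocyte nuclei of cluster 3, 55.3% of those outside, 19.6% of astrocytes and 8.36% of neurons. Without thinning, these shares were 94.9%, 75.5%, 38.8% and 36.9%. Sec14l5 had a UMI in 29.5% of cluster 3 nuclei and 1.02% of neurons after thinning, against 48.5% and 7.40% before.

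Mal stood apart from the other members in vascular endothelium and in nuclei named pericytes. In vascular endothelium it was at 329 ± 49.8 CPM (SD, n = 11, 244 to 442 CPM by library) and in pericytes at 268 ± 54.9 CPM (SD, n = 11, 196 to 385), against 303 ± 37.6 CPM (SD, n = 11) in oligodendrocytes. These 3 ranges overlapped. The summed mural markers were at 5283 CPM in nuclei named pericytes and 1259 CPM in those named vascular endothelium. The summed endothelial markers were at 10724 and 13203 CPM, so the nuclei named pericytes also held endothelial markers. The other 8 members stood at 1.31% (Sec14l5) to 38.6% (Cnp) of the oligodendrocyte level in endothelium. Of the UMIs of all 9 genes, Mal took 3.46% in oligodendrocytes, 34.0% in endothelium and 37.0% in pericytes. In vascular smooth muscle, the third vascular class, Mal was at 109 ± 76.5 CPM (SD, n = 8) and took 8.08 ± 6.02% (SD, n = 8) of these UMIs, beside 7.55% for Cnp there and 7.28% for Mal in leptomeningeal cells. After thinning to 500 UMIs, 14.2% of endothelial and 11.5% of pericyte nuclei had a Mal UMI, beside 1.59% of neurons and 15.8% of cluster 3 nuclei.

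Cnp also departed from the others. It stood at 15.2% of the oligodendrocyte level in neurons, 36.5% in astrocytes and 54.6% in microglia, the highest of the 9 members in each of these classes. Dnajc7, the gene on the opposite strand, stood at 140 CPM in oligodendrocytes, 92.2 in neurons, 105 in astrocytes and 170 in microglia. The part of Dnajc7 reads in the Cnp values was not tested.

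**Figure D4:**
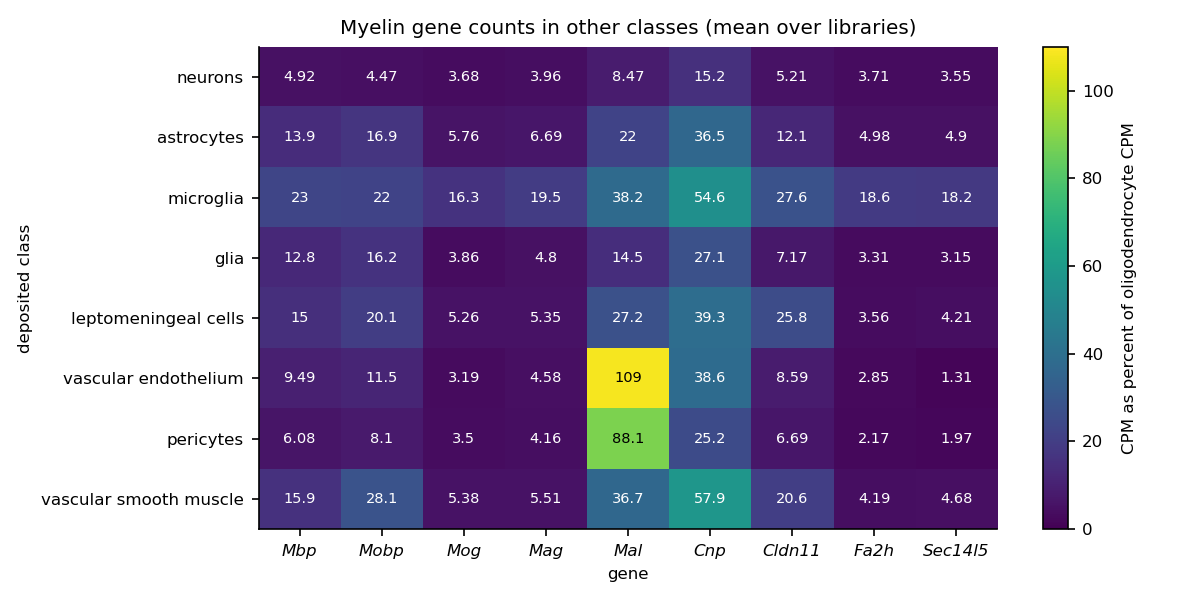
The plot of classes gives each member (columns) in the other classes (rows) as its CPM in percent of that in oligodendrocytes, the mean over libraries, printed and coloured. Mal in endothelium lies at 109% and in pericytes at 88.1%, while Sec14l5 lies at 1.31% and 1.97% there.

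Called doublets, barcodes that the deposited metadata mark as holding more than 1 nucleus, were set apart in neurons, a split chosen after seeing the data. The 65679 singlet neurons had Mbp at 128 CPM and the 10532 called doublets at 444 CPM, with median depths of 3558 and 7138 UMIs. Within singlet neurons the Mbp level fell from 669 CPM in nuclei under 1000 UMIs to 105 CPM in those of 8000 or more. Per nucleus, Mbp was at 0.549 UMIs in the shallowest nuclei, 0.332 in those of 1000 to 2000 UMIs and 0.943 in the deepest. The neurons of cluster 3 bear on the shallowest bin, where 275 of them held 47.1% of its Mbp UMIs. Without them, a choice made after seeing the data, Mbp there was at 396 CPM and 0.352 UMIs per nucleus, beside 172 CPM and 0.317 in the next bin, while the deepest bin held none of them. Singlet astrocytes did not share the fall in CPM. In them Mbp was at 508 CPM under 1000 UMIs, 516 at 1000 to 2000, 613 at 2000 to 4000 and 688 at 4000 to 8000. Per nucleus it was at 0.442, 0.704, 1.75 and 3.20 UMIs in these bins, the deepest from 5 libraries.

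**Figure D5:**
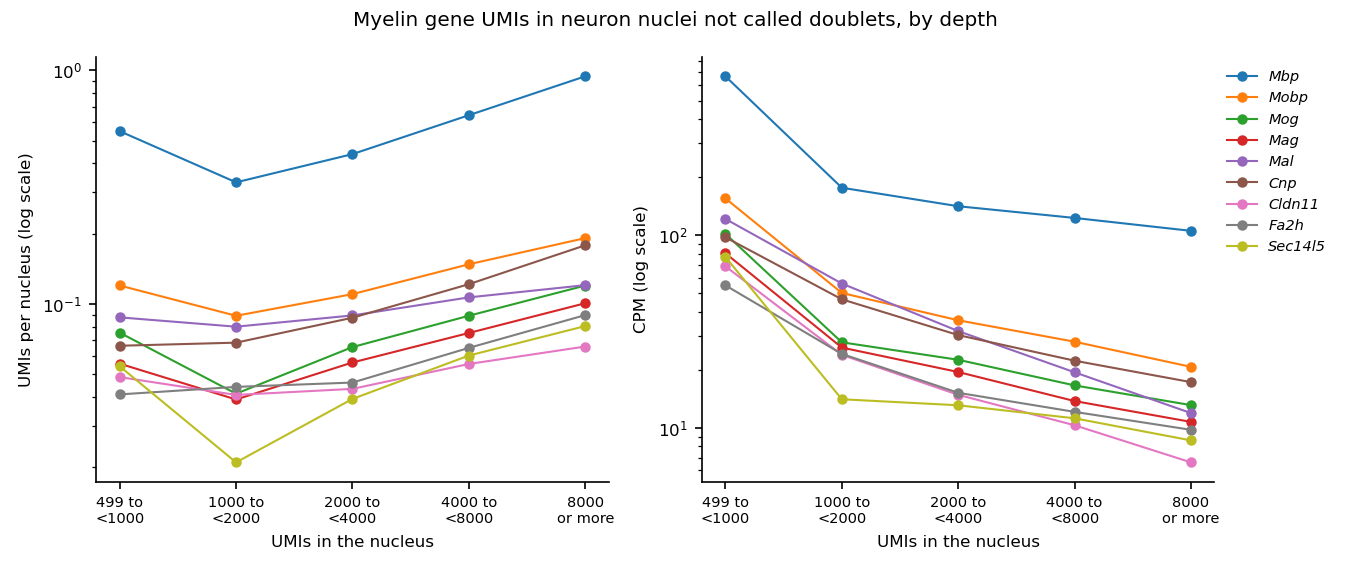
The plot of singlet neurons by depth gives the UMIs per nucleus and the CPM of each member, both on log scales, in bins of total UMIs, with UMIs per nucleus as means over 11 libraries and CPM over the pooled nuclei, those of cluster 3 included. Mbp lies between 0.332 and 0.943 UMIs per nucleus across bins, while its CPM goes from 669 in the shallowest bin to 105 in the deepest.

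Change by dosing group was also tested in the 8 other classes, wherever a member passed the count filter. Of 264 tests of a member, edgeR called 0 (lowest adjusted p 0.972) and 6 had an unadjusted p under 0.05. Among all genes in these fits, 0.00181% of tests were called and 2.19% had an unadjusted p under 0.05, close to the share for the members. DESeq2 called 0 of the members. Among the 6 was Mag in microglia, at -1.17 in nonTV:Malat1 against ATV:BACE1 (SE 0.39, with 3.85% of genes at an unadjusted p under 0.05) and 1.06 in OTV:Malat1 against nonTV:Malat1 (SE 0.38, with 2.35%), comparisons that share the nonTV:Malat1 libraries.

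Genes with the most similar pattern over the 10 classes were sought by the Pearson r of log2(CPM + 1) with the mean of the members, among 1986 non-members of at least 100 CPM in oligodendrocytes. Among the highest were Arrdc3 (r = 0.982), Ermn (0.981), Parg (0.977) and Gm10863 (0.976). The classes share libraries and free RNA, so r is a description. Nor does r give the size of a difference between classes. Parg stood at 123 CPM in oligodendrocytes and 71.8 CPM in neurons, beside 197 and 16.7 CPM for Arrdc3 and 253 and 8.90 CPM for Gm10863. Of the members, Mal had an r of 0.480 and the other 8 had 0.912 to 0.970.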

How the data were processed

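Nuclei of 11 libraries were analysed from the deposited matrix of UMI counts per gene and nucleus, which the authors made with Cell Ranger 5.0.0 and Seurat 4 on build mm10, per the submitters' processing notes. The class names, clusters, doublet calls, mitochondrial percent and class score (a fraction from 0 to 1) are the authors' deposited values. Here, counts were summed per library and class, with at least 20 nuclei a sum. edgeR 4.0.16 (quasi-likelihood, TMM factors, filterByExpr, all 4 groups in 1 fit, Benjamini-Hochberg adjustment, threshold 0.05) was the main test and DESeq2 1.42.0 an alternative, in R 4.3.3. Members, lists and comparisons were chosen with earlier results of these data known. Besides members and Malat1, named genes were those of the lists that passed, the highest of each list, and those of most similar pattern. Outside this rule, markers that check a class name are given, Dnajc7 is named for its overlap with Cnp, and Pdgfra, Lhfpl3, Tnr, Ttr and Folr1 were named after their values were seen. Each library is 1 mouse. Same-numbered libraries deviated together (r 0.211 to 0.527 over 15 pairs, against -0.383 to 0.0771 over 30 others), and the number coincides with the deposited batch. The main fit did not use the numbers. They entered as a block in an alternative fit and as pairs in a comparison of CPM. Counts of 12065 genes were simulated for OTV:Malat1 against ATV:BACE1. There 50 of 50 genes were recovered at a log2 change of 2, 47 of 50 at 1 and 35 of 50 at -1. Among unchanged genes, 12 were called. The simulation gave every gene the same dispersion, changed only genes above a CPM cutoff and held no effect of the replicate number. These rates need not hold for the real libraries, and changes as small as those of the members were not simulated. Promoter windows were RefSeq's, build GRCm38.p6. Some genes that this rule names are not reported here.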

Additional observations from a re-analysis of the deposited data

Results flagged for a closer look

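The change of Malat1 in oligodendrocytes differed between nuclei in cluster 3 and nuclei outside it. In OTV:Malat1 against ATV:BACE1 the difference of the log2 changes was -2.37 (SE 0.20, edgeR adjusted p = 2.65e-09), with the larger fall inside cluster 3. The same difference was not detected for any of the 9 myelin genes. Both sets of nuclei came from the same mice, and the test was chosen after seeing the data. The clusters were made from the same counts. Nuclei outside cluster 3 also differed in depth, with a median of 1938 UMIs against 910, and in called doublets, 8.8% against 0.0231%.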

How the results depend on the processing

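No member was called by edgeR or DESeq2 in oligodendrocytes under any alternative run, leaving out each library included. The sign of a member's change differed from the reported one in 68 of 900 alternatives, and a sign change was counted as a reversal only outside the reported 95% interval, which did not occur. Scaled by total counts, the members' median of OTV:Malat1 was 0.129 with ATV:BACE1 as the reference (0.0215 with TMM), 0.138 with nonTV:Malat1 (0.0576 with TMM) and 0.0351 with Malat1 ASO, where the sign turned from -0.0733 with TMM. In that last comparison it was -0.103 without the count filter and -0.114 in cluster 3 alone. Leaving out 1 library, the median ranged from -0.0339 to 0.0809 in OTV:Malat1 against ATV:BACE1, -0.0281 to 0.119 in nonTV:Malat1 and -0.0488 to 0.196 in Malat1 ASO against ATV:BACE1. It ranged from -0.0233 to 0.0973 in OTV:Malat1 against nonTV:Malat1 and from -0.169 to 0.155 against Malat1 ASO, where the lone remaining Malat1 ASO library was assumed to vary like the others. Of all genes, with the replicate block (paired numbers) 2 were called in OTV:Malat1, 3 in nonTV:Malat1 and 5 in Malat1 ASO against ATV:BACE1, and 2 in OTV:Malat1 against nonTV:Malat1; the block changed no call of a member. Without the count filter 4, 1 and 5 were called in the comparisons with ATV:BACE1 and 4 in OTV:Malat1 against Malat1 ASO. With only the groups compared, 1 was called in Malat1 ASO against ATV:BACE1. With Malat1 left out of the table, 0 were called in all 3 OTV:Malat1 comparisons, since Malat1 had been the gene called. The median over members in microglia was 32.0% of the oligodendrocyte level in nuclei of at least 1000 UMIs, against 21.7%, and in neurons 2.78% without called doublets, against 4.48%. The median share of nuclei with a UMI was 29.5% in cluster 3, 15.8% outside and 1.54% in neurons at 500 UMIs, 52.5%, 28.4% and 2.83% at 1000 UMIs, and 48.5%, 44.8% and 9.97% without thinning. With 2 or 3 mice a group, changes inside an interval given were not excluded by the fit it comes from.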

Other observations

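Mal was highest in OTV:Malat1 replicate 5 in several classes, at 391 CPM in oligodendrocytes, 48.3 CPM in neurons and 442 CPM in vascular endothelium. Ttr, from the list of choroid plexus markers and named after its value was seen, stood at 1449 CPM in oligodendrocytes, while Folr1, of the same list, stood at 6.08 CPM. The 1912 neurons of cluster 9 had the 9 members at a summed 2113 CPM, with 41.0% of these nuclei called doublets. The sum was 226 CPM in neurons of cluster 1 with 3.003% called doublets, 383 CPM in cluster 0 with 11.7%, 499.2 CPM in cluster 5 with 45.3% and 620 CPM in cluster 8 with 56.7%. It was 456 CPM in cluster 2 with 20.9%, 700 CPM in cluster 6 with 19.1% and 918 CPM in cluster 7 with 29.0%. The 296 neurons of cluster 3 had the highest sum, 5839 CPM over 7 libraries, with 0.338% called doublets. The part of doublets in these sums was not tested.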
